A study of Mus musculus with 2 samples.

Results

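The Wnt ligands, their Frizzled receptors, the LRP coreceptors and the secreted Wnt inhibitors were followed in the RNA of the aged mouse heart. The genes were chosen by symbol: every numbered Wnt, Fzd, Sfrp or Dkk gene, together with Frzb, Wif1, Lrp5 and Lrp6, with at least 1 protein-coding transcript. This gave 41 of the 55536 Ensembl genes in the gene tables, of which 19 code for ligands, 10 for receptors, 2 for coreceptors and 10 for inhibitors. The rule itself uses symbols and annotation only. The tissue was the heart of female B6CASTF1/J mice, the first-generation cross of C57BL/6J with CAST/EiJ, aged 18 to 20 months, and the labels name no treatment. The labels give 1 group with 2 libraries, called replicates 1 and 2, and no contrast, so levels and the distance between the libraries are described and nothing is tested. The libraries have separate biosample entries and a single donor entry, and the spread between them may therefore be technical in part.

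Wnt proteins are secreted, lipid-modified signals. When a Wnt brings a Frizzled receptor together with LRP5 or LRP6, the complex that destroys beta-catenin is held inactive, and beta-catenin enters the nucleus and acts with TCF and LEF factors. Other Wnts, with Wnt5a and Wnt11 the best known, mostly act through Frizzled without beta-catenin, on cell polarity and calcium. Secreted Frizzled-related proteins and Wif1 bind Wnts outside the cell, while Dkk1, Dkk2 and Dkk4 bind the LRP coreceptors. In the heart the pathway is known for its part in the formation of the heart tube, the outflow tract and the valves, and in scarring after injury.

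Expected counts, the estimated reads per gene, totalled 35897521 in replicate 1 and 36926429 in replicate 2, and the 41 genes held 12784 and 14446 of them. Levels are in TPM, a unit of relative transcript abundance that corrects for transcript length and library size. Cardiomyocyte markers summed to 34642 TPM in replicate 1 and 33220 in replicate 2, with 8 of 8 at 1 TPM or more in both. The libraries differed in markers of other cells. Replicate 2 was higher in 10 of 10 adipocyte markers, which summed to 107 TPM in replicate 1 and 493 in replicate 2, and in 9 of 9 lymphocyte markers, with sums of 10.9 and 138 TPM. It was also higher in 8 of 8 atrial markers, with sums of 472 and 1136 TPM, and in 7 of 8 airway markers, with sums of 1.02 and 303 TPM, the alveolar marker Sftpc being at 0 in both. Macrophage markers were higher in replicate 2 in 7 of 8 cases, with sums of 102 and 154 TPM, and blood markers in replicate 1 in 5 of 5 cases, with sums of 23409 and 11150 TPM. Mural markers summed to 315 and 299.8 TPM and those of endocardium and valve to 50.4 and 53.85 TPM. Schwann cell and neuron markers summed to 7.72 and 9.24 TPM with Th and Chga at 0. Thymus markers summed to 1.36 and 1.37 TPM, and Foxn1, Psmb11 and Ptcra had no expected count in either library. In bulk tissue, fewer cells of a type and less RNA per cell cannot be told apart.

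Receptors and coreceptors were present at several levels, few Wnts were, and 1 inhibitor stood above the rest. At 1 TPM or more in both libraries, 15 of 41 genes (36.6%) were detected, against a background of 49.9% of 22015 nuclear protein-coding genes. They were 6 of 10 receptors, both coreceptors, 4 of 10 inhibitors and 3 of 19 ligands. The median of the mean level was 18.9 TPM for the coreceptors, 1.56 TPM for the receptors, 1.23 TPM for the inhibitors and 0.085 TPM for the ligands, against 1.21 TPM for all nuclear protein-coding genes. Another 3 genes, Sfrp5, Wif1 and Fzd2, reached 1 TPM in 1 library only, 16 had counts but stayed below 1 TPM in both, and 7 had no expected count in either.

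**Figure D1:**
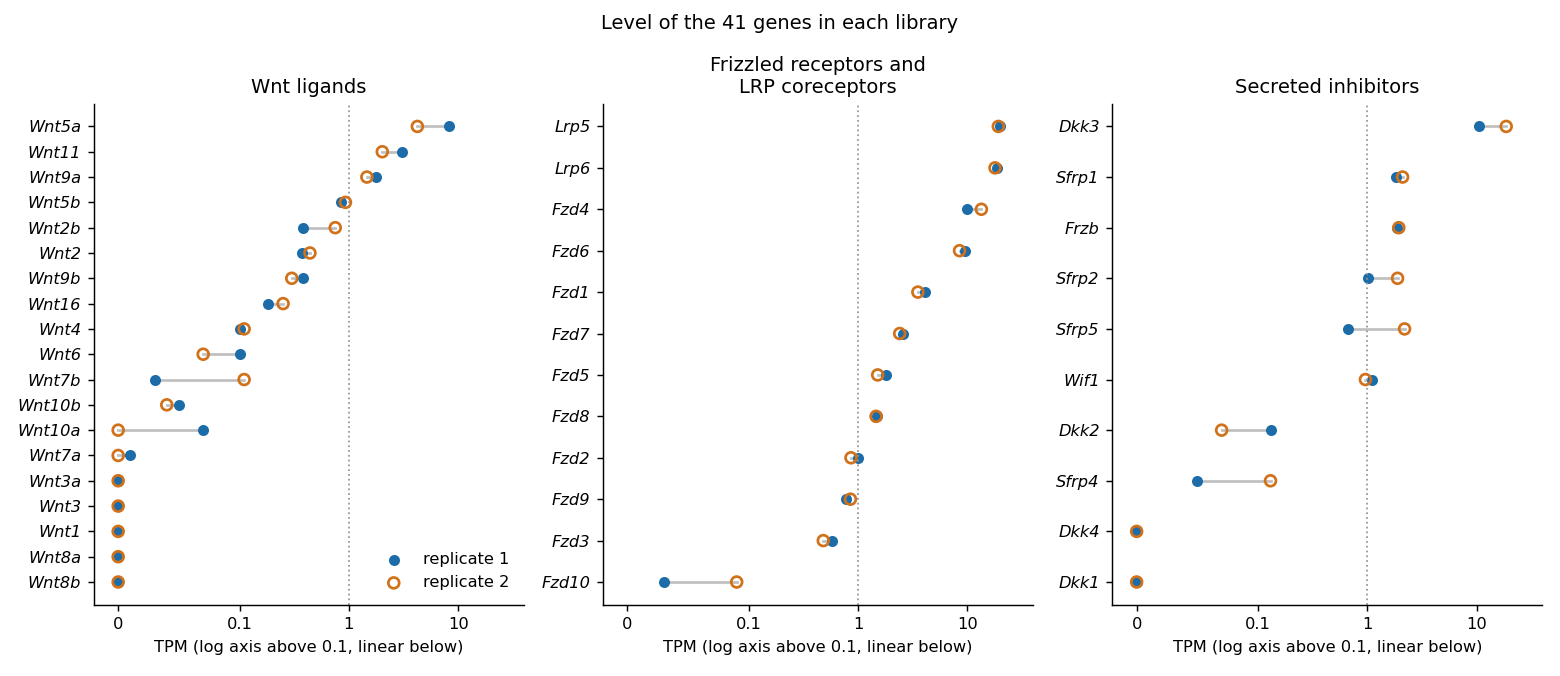
Level of each of the 41 genes in TPM (horizontal axis, logarithmic above 0.1 and linear below), with replicate 1 as filled and replicate 2 as open circles, joined by a line; the dotted line marks 1 TPM. Lrp5 and Lrp6 lie between 17.9 and 19.7 TPM, Dkk3 between 10.5 and 18.6 TPM, and Wnt5a is the highest ligand at 8.30 and 4.23 TPM.

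As sums over each class, the receptors held 31.7 TPM in replicate 1 and 33.1 in replicate 2, and the coreceptors 38.4 and 37.1 TPM. The inhibitors held 17.2 TPM in replicate 1 and 27.9 in replicate 2, and the ligands 15.7 and 10.7 TPM. Receptor and coreceptor sums were thus close in both libraries, while inhibitors and ligands moved in opposite directions between them. The inhibitor sum was 1.10 times the ligand sum in replicate 1 and 2.61 times in replicate 2. Without Dkk3 the inhibitors summed to 6.69 TPM in replicate 1 and 9.28 in replicate 2, below the ligand sum in both. A few genes made up most of each class: Wnt5a, Wnt9a and Wnt11 held 78.0% ± 8.44 (SD, n = 2) of the ligand sum, Fzd4 and Fzd6 63.6% ± 3.72 of the receptor sum, and Dkk3 64.0% ± 3.95 of the inhibitor sum.

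Among the ligands, Wnt5a was the highest. This gene, on the plus strand of chromosome 14 at 28504750 to 28527448 (mm10, as all coordinates here), codes for the best-known ligand of beta-catenin-independent signalling. It had 790 counts and 8.30 TPM in replicate 1 and 523 counts and 4.23 TPM in replicate 2, so the libraries lay far apart. Wnt11 (chromosome 7, 98835112 to 98855195), a ligand of convergent extension and of heart morphogenesis, had 109 counts and 3.07 TPM in replicate 1 and 86 counts and 2.02 TPM in replicate 2. Wnt9a (chromosome 11, 59306928 to 59333552), which in the chick embryo is known from the cushions that form the heart valves, had 1.78 and 1.46 TPM. Both libraries placed these ligands in the order Wnt5a, Wnt11, Wnt9a, and the values of neighbours in this order did not overlap in the gene table or in the second transcript table described below. In the RSEM-layout transcript table, also described below, the order of Wnt11 and Wnt9a turned when only protein-coding transcripts were taken. This gave Wnt11 1.44 TPM in replicate 1 and 1.25 in replicate 2, below Wnt9a in both libraries. In the second transcript table the order turned in replicate 2 only.

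The other ligands were low or at 0. Wnt5b, the paralog of Wnt5a, had 0.85 TPM in replicate 1 and 0.93 in replicate 2, Wnt2b had 0.38 and 0.75 TPM, Wnt2 had 0.37 and 0.44 TPM, and Wnt9b had 0.38 and 0.30 TPM. Between 3 and 13 counts per library were found for Wnt4, Wnt6, Wnt7b, Wnt10b and Wnt16. Wnt10a had 2 counts in replicate 1 and Wnt7a had 1, with 0 for both genes in replicate 2. Wnt1, Wnt3, Wnt3a, Wnt8a and Wnt8b had no expected count in either library, and in the second transcript table only Wnt8b had any, with 1 in replicate 2. Wnt1 and Wnt3a are the classical activators of beta-catenin signalling. A count of 0 allows up to 3 counts, which for Wnt3a corresponds to 0.0404 TPM in replicate 1 and 0.0383 in replicate 2, and for Wnt1 to 0.0471 and 0.0447 TPM. These limits, and all intervals below, cover counting error only.

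Several ligand genes lie in pairs on the chromosome, and in 2 of the 4 pairs within 50 kb 1 gene had 39 counts or more in each library and the other none. Wnt9a and Wnt3a start on opposite strands of chromosome 11 with 16.2 kb between them, and Wnt9a had 160 and 138 counts where Wnt3a had none. Wnt9b and Wnt3, also on opposite strands of chromosome 11 and 24.3 kb apart, had 47 and 39 counts for Wnt9b and none for Wnt3. The pairs Wnt6 with Wnt10a (6.19 kb apart on chromosome 1) and Wnt10b with Wnt1 (11.7 kb apart on chromosome 15) were below or at 0.1 TPM on both sides.

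All 10 Frizzled genes had counts in both libraries. Fzd4 (chromosome 7, 89404355 to 89413134), the receptor of Wnts and of the non-Wnt ligand Norrin in vessels, was the highest, with 1830 counts and 9.90 TPM in replicate 1 and 2614 counts and 13.4 TPM in replicate 2. Fzd6 (chromosome 15, 39006034 to 39038188), a receptor of planar cell polarity, had 685 counts and 9.43 TPM in replicate 1 and 517 counts and 8.47 TPM in replicate 2. Fzd1 had 4.13 and 3.52 TPM, Fzd7 had 2.59 and 2.40 TPM, Fzd5 had 1.79 and 1.51 TPM and Fzd8 had 1.48 and 1.46 TPM. The order from Fzd4 to Fzd8 was the same in both libraries and no neighbours overlapped, although Fzd4 and Fzd6 did overlap in the second transcript table. Fzd2 had 1.00 TPM in replicate 1 and 0.86 in replicate 2, Fzd9 had 0.78 and 0.85 TPM and Fzd3 had 0.58 and 0.48 TPM. Fzd10 was the lowest, with 3 counts in replicate 1 and 8 in replicate 2.

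By the mean of the 2 libraries the coreceptors were the highest of the 41 genes, although in replicate 2 Dkk3, at 18.6 TPM, lay above Lrp6. Lrp5 (chromosome 19, 3584828 to 3686564) had 2665 counts and 19.7 TPM in replicate 1 and 2778 counts and 19.2 TPM in replicate 2. Lrp6 (chromosome 6, 134446476 to 134566965) had 3235 counts and 18.7 TPM in replicate 1 and 3505 counts and 17.9 TPM in replicate 2. The replicates of each gene were thus within 1.05-fold in TPM. Their mean levels stood at the 86.4th and 85.6th percentile of nuclear protein-coding genes. Lrp5 was above Lrp6 in both libraries by 1.06-fold and 1.07-fold, but in the second transcript table the values of the 2 genes overlapped.

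Among the inhibitors, Dkk3 was far above the others. Dkk3 (chromosome 7, 112116017 to 112159057) is a divergent member of its family that is not an established LRP antagonist. It had 959 counts and 10.5 TPM in replicate 1 and 1788 counts and 18.6 TPM in replicate 2, that is 5.73 and 8.88 times the level of the next inhibitor in the order, Sfrp1. Of the classical LRP antagonists, Dkk1 and Dkk4 had no expected count in either library and Dkk2 had 13 in replicate 1 and 7 in replicate 2. The second transcript table gave Dkk4 1 count in replicate 1 and 3 in replicate 2, or 0.0334 and 0.0989 TPM, and Dkk1 1.01 and 0 counts. For Dkk1 a count of 0 allows up to 0.0462 TPM in replicate 1 and 0.0438 in replicate 2. Of the Wnt-binding inhibitors, Sfrp1 had 1.84 and 2.10 TPM, Frzb had 1.88 and 1.94 TPM and Sfrp2 had 1.02 and 1.89 TPM. Sfrp5 had 0.66 and 2.19 TPM and Wif1 had 1.11 and 0.96 TPM. The ranges of neighbours among these 5 genes overlapped in the gene table, so their order is not settled; in the second transcript table Frzb stood apart from Sfrp2. Sfrp4 had 2 counts in replicate 1 and 6 in replicate 2.

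The 2 libraries were then compared gene by gene. A gene was called apart when its TPM differed 1.5-fold or more and it had at least 30 counts in 1 library. Of the 41 genes, 23 passed the count minimum and 6 of them (26.1%) were apart, against 13.7% of 12617 nuclear protein-coding genes. Wnt5a and Wnt11 were higher in replicate 1 (2 of 23, against a background of 3.6%), and Dkk3, Sfrp5, Sfrp2 and Wnt2b were higher in replicate 2 (4 of 23, against 10.1%). No receptor and no coreceptor was among them. With 1 library on each side these calls have no replicate check, and 6 genes are too few to read as a property of the family.

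**Figure D2:**
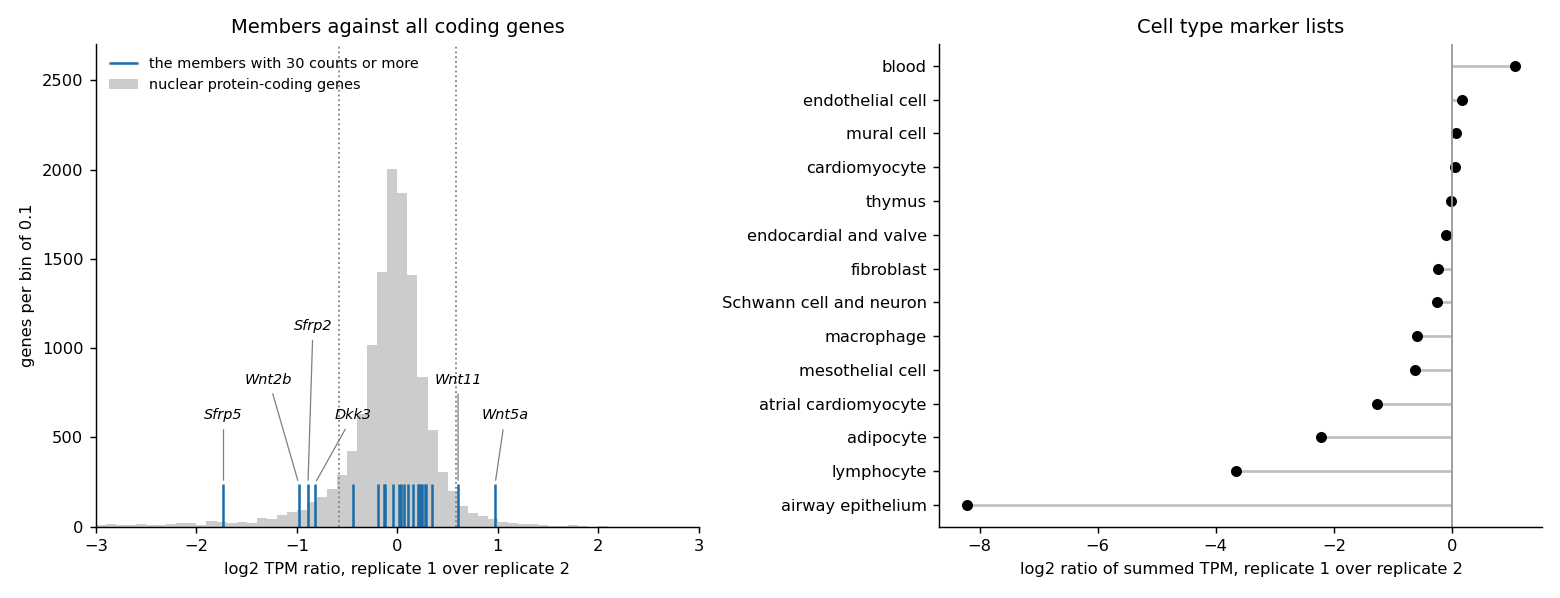
Left, log2 TPM ratio of replicate 1 over replicate 2 for nuclear protein-coding genes with 30 counts or more in 1 library (grey, genes per bin of 0.1) and for the 23 members that passed the same minimum (blue ticks), with dotted lines at 1.5-fold. Right, the same ratio for the summed TPM of 14 marker lists. The 6 named genes lie outside the dotted lines, Sfrp5, Wnt2b, Sfrp2 and Dkk3 on the side of replicate 2. Most marker lists also lie on that side, among them the airway, lymphocyte, adipocyte, atrial, mesothelial, macrophage and fibroblast lists.

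Sfrp5, a secreted Frizzled-related protein also known as a product of fat cells, had the widest distance. Its ratio of counts per total, replicate 1 over replicate 2, was 0.293 with an exact 95% interval of 0.192 to 0.434, from 33 and 116 counts. The ratio was 0.524 (0.370 to 0.734) for Sfrp2, from 54 and 106 counts, and 0.493 (0.317 to 0.751) for Wnt2b, from 34 and 71 counts. For Dkk3 it was 0.552 (0.510 to 0.597). All 4 intervals lay below 1, but the genes were called apart on the same reads, so the intervals are no separate support for the calls. The adipocyte, atrial, lymphocyte and airway marker sums given above were higher in replicate 2 as well, the mesothelial markers summed to 19.3 TPM in replicate 1 and 29.7 in replicate 2 with 7 of 7 higher in replicate 2, and fibroblast markers to 514 and 602 TPM with 8 of 10 higher. Their part in the values of these 4 genes was not tested.

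Wnt5a had a ratio of counts per total of 1.55 (1.39 to 1.74), smaller than its TPM ratio of 1.96. Part of the TPM distance lay in Wnt5a-204, a noncoding transcript of 337 nt. In the RSEM-layout transcript table it had 11.1 counts and 1.67 TPM in replicate 1, and 2.76 counts and 0.39 TPM in replicate 2. The protein-coding transcripts of Wnt5a held 4.53 TPM in replicate 1 and 2.79 in replicate 2. Wnt11 had a count ratio of 1.30 (0.974 to 1.75), an interval that includes 1, and a TPM ratio of 1.52, and its call was lost with the posterior mean TPM and with TPM rescaled over nuclear protein-coding genes. Blood markers were the list that was furthest towards replicate 1, and endothelial markers summed to 243 TPM in replicate 1 and 217 in replicate 2; their part was not tested. Fzd4 was not called apart at 1.5-fold, yet its count ratio of 0.720 (0.678 to 0.765) lay below 1, while Fzd6 stood at 1.36 (1.21 to 1.53).

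Which transcripts carry these levels was read from the deposited transcript tables, one in the column layout of RSEM and a second in that of kallisto. The 41 genes have 97 annotated transcripts, and 20 genes have only 1. Fzd4 and Dkk3, like Fzd1 and Fzd7, are single-transcript genes, so all of their reads were assigned to a protein-coding transcript. Lrp5-201, which codes for 1614 codons, led Lrp5 with 88.6% of its TPM in replicate 1 and 91.9% in replicate 2, and with 97.4% ± 0.719 (SD, n = 2) in the kallisto-layout table. Lrp6-201, which codes for 1613 codons, led Lrp6 with 63.7% and 69.2%, and with 66.1% ± 2.18 in the kallisto-layout table. Most of the rest of Lrp6 was assigned to short models, the retained intron Lrp6-205 of 941 nt with 18.7% and 18.1% and the fragment Lrp6-203 of 722 nt with 16.5% and 11.04%.

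Transcripts not annotated as protein-coding took a larger share of TPM than of reads in Lrp6, Fzd6 and Wnt5a, where they are short and TPM divides by length. For Lrp6 they held 19.7% of TPM but 3.03% of counts in replicate 1, and 19.7% against 2.66% in replicate 2. For Fzd6 they held 41.99% of TPM and 9.25% of counts in replicate 1, and 57.7% and 15.8% in replicate 2. For Wnt5a they held 45.4% of TPM and 15.7% of counts in replicate 1, and 34.04% and 12.6% in replicate 2. Wnt11 went the other way, with 53.2% of TPM and 63.9% of counts in replicate 1 and 38.4% and 44.7% in replicate 2. Counting only protein-coding transcripts of the RSEM-layout table, Fzd6 had 5.47 TPM in replicate 1 and 3.58 in replicate 2. These values overlap with the 4.13 and 3.52 TPM of Fzd1, so the place of Fzd6 beside Fzd4 rests on its noncoding models. On the same scale Wnt5a had 4.53 and 2.79 TPM and remained the highest ligand, Lrp6 had 15.0 and 14.35 TPM and Wnt11 had 1.44 and 1.25 TPM.

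**Figure D3:**
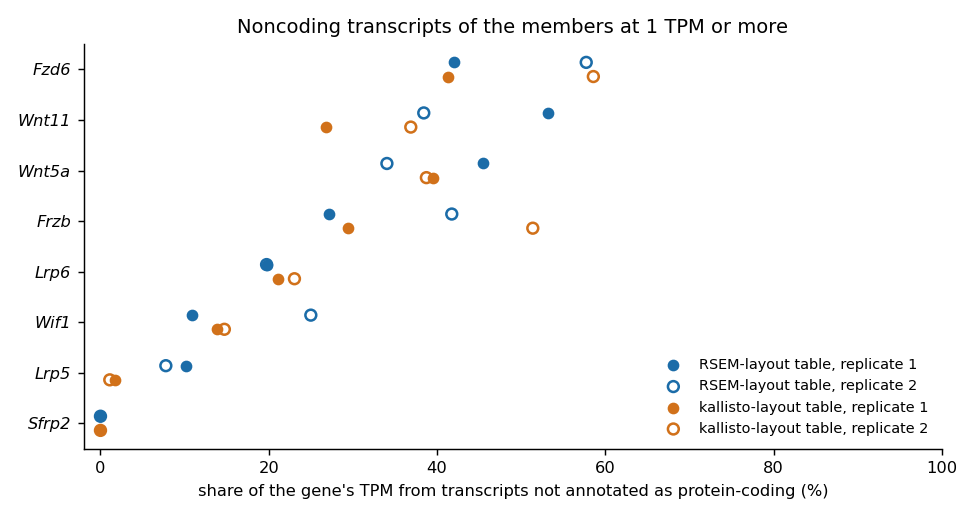
Share of the TPM of each gene that was assigned to transcripts not annotated as protein-coding, in percent, for members at a mean of 1 TPM or more with such a transcript, in both replicates and both transcript tables. Fzd6, Wnt11, Wnt5a and Frzb lie highest, and for Frzb the replicates differ in both tables, with 27.1% and 41.8% in the RSEM-layout table.

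Fzd6 had no stable leading transcript. In the RSEM-layout table Fzd6-204, a model of 750 nt annotated for nonsense-mediated decay, led with 34.7% ± 9.58, whereas in the kallisto-layout table the protein-coding Fzd6-202 led with 39.8% ± 0.0159 (SD, n = 2 each). Wnt11 was split among Wnt11-203, Wnt11-202, Wnt11-204 and Wnt11-205, none of them above 38.6% in the RSEM-layout table. For Wnt5b the RSEM-layout table gave 99.97% of TPM to Wnt5b-204 in replicate 1 and 0% in replicate 2, whereas the kallisto-layout table gave 65.9% and 50.4% to Wnt5b-201 and 32.8% and 49.5% to Wnt5b-204. Gene totals were steadier, since for the 17 genes at a mean of 1 TPM or more the kallisto-layout mean was between 0.974 and 1.26 times the RSEM-layout mean.

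Reads of Wnt5a were assigned to annotated starts whose transcripts begin translation at different codons. Transcripts that start within 100 nt of position 28511390 held 50.2% of its TPM in replicate 1 and 51.1% in replicate 2, and Wnt5a-201, which starts upstream at 28504750, held 27.95% and 39.7%. By counts, the upstream Wnt5a-201 had 447 and 341 and the downstream transcripts 331 and 179, of which the noncoding Wnt5a-203 had 112 and 63.2. In the kallisto-layout table the downstream start held 72.0% and 71.4% of TPM. The leading single transcript was Wnt5a-201 with 33.8% ± 8.32 in the RSEM-layout table and Wnt5a-203 with 36.7% ± 2.85 in the kallisto-layout table (SD, n = 2 each). Wnt5a-202, from the downstream start, codes for 360 codons and Wnt5a-201 for 380, and the coding sequence of the shorter form is the tail of that of the longer one. The first 120 coding bases of Wnt5a-201 (GENCODE M21) are shown because they hold this difference. The 60 bases in lower case before the capitals, 20 codons, belong to the longer form only, and the capitals mark the start codon of Wnt5a-202.
Wnt5a-201: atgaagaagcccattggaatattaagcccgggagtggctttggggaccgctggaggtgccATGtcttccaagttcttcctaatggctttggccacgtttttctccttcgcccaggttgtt

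Reads of Wnt11 were likewise assigned mainly to 2 starts, each with a full-length transcript of 354 codons, Wnt11-201 upstream and Wnt11-205 downstream. In the RSEM-layout table Wnt11-201 held only 6.85% of TPM in replicate 1 and 6.21% in replicate 2, and Wnt11-205 1.31% and 25.65%. More of the upstream share went to Wnt11-203, of 99 codons, with 38.6% and 29.7%. Another 27.6% and 33.5% went to Wnt11-202, a model annotated for nonsense-mediated decay. The upstream start at 98835112 held 73.1% of TPM in replicate 1 and 69.5% in replicate 2, and the downstream start at 98838845 held 26.9% and 30.5%. The kallisto-layout table moved these shares to 64.3% and 36.7% for the upstream start and to 32.0% and 47.0% for the downstream one, so the tables differ on which start led in replicate 2. By counts in the RSEM-layout table the upstream start had 78.7 in replicate 1 and 56.45 in replicate 2, and the downstream one 30.35 and 29.54. These are assignments of reads to overlapping transcript models, and use of the starts was not measured. The 250 bases before the upstream and downstream starts (RefSeq, GRCm38.p6, plus strand, chr7:98834862-98835111 and chr7:98838595-98838844) are shown because they precede these 2 annotated starts. The capitals mark a match to the core of the site bound by TCF and LEF factors.
Wnt11 upstream start: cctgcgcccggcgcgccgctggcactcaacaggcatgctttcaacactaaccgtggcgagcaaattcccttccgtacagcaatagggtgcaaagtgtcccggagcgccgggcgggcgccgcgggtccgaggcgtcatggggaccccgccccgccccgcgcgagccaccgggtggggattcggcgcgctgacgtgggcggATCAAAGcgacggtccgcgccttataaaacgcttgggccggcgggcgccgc
Wnt11 downstream start: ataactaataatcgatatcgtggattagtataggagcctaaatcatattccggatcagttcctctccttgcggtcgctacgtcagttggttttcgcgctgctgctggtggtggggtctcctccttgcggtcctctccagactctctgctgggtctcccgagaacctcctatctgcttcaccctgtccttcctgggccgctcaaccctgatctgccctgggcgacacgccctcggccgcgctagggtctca

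The core was searched on both strands as CTTTG followed by 2 letters that are each A or T. The match before the upstream Wnt11 start lies on the minus strand, begins 51 bases before the start and directly follows a GC box without overlapping it. RefSeq promoters were given for 27 of the 41 genes, 30 promoters in all. Those of Dkk3, Dkk4, Fzd2, Fzd3, Fzd6, Fzd8, Lrp5, Lrp6, Sfrp1, Sfrp4, Wnt10a, Wnt5a, Wnt7b and Wnt8a were not among them. The core was present in 4 of 30 (13.3%), against 14.8% of all 32851 promoters and 13.0% of 20150 promoters of nuclear protein-coding genes. The members' share was thus near the background. A match describes these letters only.

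In base composition the promoters of the family varied widely, from 48.4% GC before Wnt8b to 87.6% before Wnt3a, around medians above those of other genes. Their median GC content was 67.4%, against 56.0% for nuclear protein-coding genes, and the median ratio of observed to expected CpG was 0.758 against 0.551. The GC box GGGCGG, on either strand, was present in 73.3% of them, against 44.1% of promoters of nuclear protein-coding genes. The median CpG ratio was 0.755 for the 11 promoters of genes at a mean of 1 TPM or more and 0.761 for the 19 of genes below it, and the median GC content was 64.4% and 71.6%.

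The 250 bases before the start of the inhibitor genes Sfrp2 and Sfrp5 are shown because both were higher in replicate 2. Their GC content was 63.6% and 59.6% and their CpG ratio 0.640 and 0.657, and neither holds the TCF and LEF core, so no letters are in capitals. Sfrp2 is on the plus strand (chr3:83766071-83766320) and Sfrp5 on the minus strand (chr19:42202253-42202502), both RefSeq, GRCm38.p6.
Sfrp2: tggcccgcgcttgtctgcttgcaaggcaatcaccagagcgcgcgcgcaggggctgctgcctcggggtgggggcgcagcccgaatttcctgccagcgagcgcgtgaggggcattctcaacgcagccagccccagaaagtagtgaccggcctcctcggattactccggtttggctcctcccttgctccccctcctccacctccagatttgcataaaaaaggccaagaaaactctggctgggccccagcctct
Sfrp5: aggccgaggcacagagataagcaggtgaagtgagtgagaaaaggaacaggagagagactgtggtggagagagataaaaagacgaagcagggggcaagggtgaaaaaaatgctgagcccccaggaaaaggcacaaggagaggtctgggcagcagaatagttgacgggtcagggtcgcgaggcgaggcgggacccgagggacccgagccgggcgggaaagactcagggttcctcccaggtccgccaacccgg

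Reads of near-identical paralogs can be split wrongly. The longest identical coding stretches among the 41 genes, 47 bases each, were between Fzd1 and Fzd2 and between Fzd1 and Fzd7. They are shown because only a read no longer than such a stretch would fit wholly inside it and match both genes. They begin at codon 402 of Fzd1 for the first and at codon 191 of Fzd1 for the second.
Fzd1 and Fzd2: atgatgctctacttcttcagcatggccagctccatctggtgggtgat
Fzd1 and Fzd7: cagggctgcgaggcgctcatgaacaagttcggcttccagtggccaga
Such stretches were rare. Words of 31 nt shared with any other gene made up 1.61% of Fzd1, 1.90% of Fzd2 and 0.777% of Fzd7, and the highest share among the 41 genes was 5.84% for Wnt4. Expected counts in the gene table, as deposited, were exact whole numbers for 41 of 41 genes in both libraries, while estimated counts of the kallisto-layout table were fractional for some members, such as Lrp5 with 2811.78 in replicate 1. Of antisense and other genes whose exons overlap those of a member, none had more than 4 counts in a library.

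The rest of the pathway was read from 8 lists with 85 different genes, 57 of which reached 1 TPM in both libraries, against the background of 49.9% of nuclear protein-coding genes. The lists were not tested against each other or against that background. All 16 relay genes of the list were detected, led by Ctnnb1 (beta-catenin) with 155 TPM in replicate 1 and 149 in replicate 2, the kinase gene Csnk1a1 with 79.0 and 75.8 TPM and the tankyrase gene Tnks2 with 33.0 and 27.95 TPM. Of the nuclear effectors 10 of 12 were detected, led by the coactivator Bcl9l (19.5 and 16.2 TPM), the beta-catenin inhibitor Ctnnbip1 (7.81 and 9.43 TPM) and the corepressor Tle3 (5.80 and 8.50 TPM). Of 17 known target genes of beta-catenin 5 were detected, 8 in the kallisto-layout table and 9 at a threshold of 0.5 TPM, led by Jun (23.0 and 26.3 TPM), Ccnd1 (13.9 and 14.9 TPM) and Cd44 (3.35 and 3.83 TPM). Axin2, the most widely used readout among them, had 1.88 TPM in replicate 1 and 1.84 in replicate 2.

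At the membrane, 10 of 15 co-receptors and alternative receptors were detected. Kremen1, a receptor for Dickkopf proteins, had 35.0 TPM in replicate 1 and 32.0 in replicate 2, and so lay above Lrp5 and Lrp6 while Dkk1 and Dkk4 had no expected count. Tspan12, a partner of Fzd4, had 27.8 and 29.5 TPM and Ryk, a receptor of Wnt5a, had 14.7 and 13.8 TPM. Ndp, which codes for Norrin and was picked after its values were seen, had 0.06 TPM in replicate 1 and 0 in replicate 2. Of the planar cell polarity genes 10 of 13 were detected, led by Daam1 (25.9 and 23.9 TPM), Scrib (7.49 and 8.43 TPM) and Prickle3 (5.45 and 8.22 TPM). In R-spondin signalling and receptor turnover 4 of 9 genes were detected, led by the R-spondin receptors Lgr4 (10.2 and 9.16 TPM) and Lgr6 (5.24 and 6.57 TPM) and the ubiquitin ligase Znrf3 (2.78 and 2.82 TPM).

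Outside the cell, 3 of 4 genes of ligand processing were detected. Trabd2b, a protease that inactivates Wnts, had 24.3 TPM in replicate 1 and 21.4 in replicate 2, Wls, which carries Wnts to the surface, had 16.1 and 17.4 TPM, and Porcn, which attaches the lipid, had 1.13 and 1.15 TPM. Of 7 other secreted antagonists 1 was detected. It was Igfbp4, better known as a carrier of insulin-like growth factors, with 26.85 TPM in replicate 1 and 36.55 in replicate 2, followed by Sost with 0.82 and 0.74 TPM and Apcdd1, a membrane protein, with 0.66 and 0.72 TPM. Cer1 had no expected count in either library, and in the kallisto-layout table it had 0.0471 TPM in replicate 1 and 0.0254 in replicate 2.

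**Figure D4:**
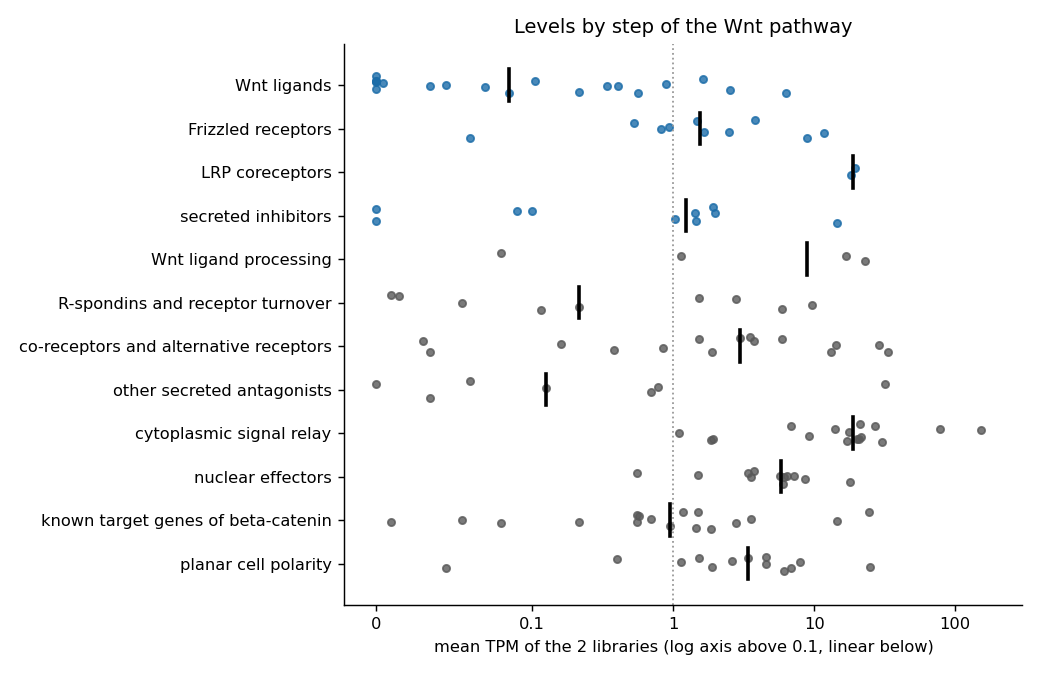
Mean TPM of the 2 libraries for each gene (points; logarithmic above 0.1 and linear below), with the 41 members by class in blue, the 8 other pathway lists in grey and the median of each row as a black bar. The median of the relay list is 18.9 TPM, against 0.085 TPM for the Wnt ligands and 0.950 TPM for the known target genes of beta-catenin.

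Between the libraries, 70 of the 85 list genes passed the count minimum and 7 were 1.5-fold apart, a share below the 13.7% of nuclear protein-coding genes. Dact1 and Ccn4 (listed as Wisp1) were higher in replicate 1, and Tcf7, Lef1, Myc, Celsr1 and Prickle3 in replicate 2. In the kallisto-layout table both calls towards replicate 1 were lost, with 1.504 TPM in replicate 1 and 1.07 in replicate 2 for Dact1 and 0.518 and 0.425 TPM for Ccn4, whose counts were 53 and 57. Tcf7, a TCF factor abundant in T cells, had 0.43 TPM in replicate 1 and 2.58 in replicate 2, and Lef1 had 0.12 and 0.99 TPM. The lymphocyte markers moved in the same direction in 9 of 9 cases, with none at 0, and their part in the 2 genes was not tested. Axin2 and Ctnnb1 were within 1.5-fold.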

How the data were processed

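Heart RNA depleted of ribosomal RNA, 300 ng per library with ERCC spike-ins per the labels, was quantified by the authors. Per the deposited readme the tables refer to mm10 and GENCODE M21, and neither program names nor versions appear in the sources used here. Expected counts (RSEM layout, per the file headers) and estimated counts (kallisto layout) were deposited as reads assigned to genes or transcripts. TPM was deposited by the authors as a relative level over all rows, and the isoform percent as a transcript's share of its gene. The kallisto-layout table was summed per gene. Levels are the gene-table TPM, with the mean ± SD of 2 libraries. Nuclear protein-coding genes formed the background. Count ratios have exact conditional binomial 95% intervals and were tested on simulated Poisson counts. The simulation shares the assumption of the intervals and holds no variation between samples, so it checks the calculation only. It was limited to genes with higher summed counts than Sfrp5, Sfrp2, Wnt2b and Wnt11. The members, lists and thresholds were chosen with earlier results of these data known. Every member was to be named, and the 3 highest genes of each pathway list. Marker lists numbered 14. Python 3.11.15, pandas 2.3.3, numpy 2.4.6 and scipy 1.17.1 were used. Alternatives were the other table, the posterior mean, rescaling, other thresholds and each library alone. Protein identity was not analysed here.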

Additional observations from a re-analysis of the deposited data

How the results depend on the processing

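The number of detected members was 15, and 16 in the kallisto-layout table and with the posterior mean TPM, 21 with TPM rescaled over nuclear protein-coding genes, 20 at 0.5 TPM, 9 at 2 TPM, and 16 to 17 with each library alone. The number of members 1.5-fold apart was 6 in both tables, with the same 6 genes, and 5 with the posterior mean and with the rescaled TPM. It was 12 with no count minimum, 1 with a fold of 2 (Sfrp5) and 3 with the ratio of TPM + 1, where low genes shrink by construction. The summed levels changed in scale with the rescaling, to 92.8 TPM for the coreceptors, 79.7 TPM for the receptors, 55.7 TPM for the inhibitors and 32.3 TPM for the ligands, since noncoding and mitochondrial RNA leave the total. In the kallisto-layout table the coreceptors summed to 38.9 TPM and the receptors to 34.3 TPM, more than 1 SD above the sums of 37.7 and 32.4 TPM. Levels of the 17 members at 1 TPM or more kept within 0.974 to 1.26 of the value in the kallisto-layout table and 0.977 to 1.24 with the posterior mean. No paired analysis was possible because there is 1 group and no contrast. With 2 libraries the SD is a rough measure, and the 18 members below 30 counts in both libraries were too shallow to compare.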
